A study of Arabidopsis thaliana with 6 samples.

Results

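The loci examined here lie on chromosome 1 of Arabidopsis thaliana, from AT1G16170 to AT1G23250, ahead of the RSL4 locus in the numbering that runs along the chromosome. A member was a probe set with 1 annotated locus in that stretch whose signal exceeded the 40th percentile of its array on 2 or more of the 6 arrays. Symbols that begin with EXP, XTH, SWEET, GSTU, UGT, SCPL, BGLU or PRA1 were left out. The rule gave 225 members at 222 loci, of 7611 tested probe sets with 1 locus and 14170 tested probe sets in all. The stretch holds 810 annotated loci, so most of its loci had no member. AT1G18390, AT1G21830 and AT1G22330 had 2 probe sets each. The first member lay 1420 annotated loci before RSL4 and the last 503 loci before it. The stretch was chosen with the changes of rsl4-1 against Col-0 already known, so shares of members called in that comparison are given as a description.

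Root RNA of 3 genotypes was compared on Affymetrix ATH1 arrays, with 2 arrays per genotype. Col-0 is the wild-type accession and the genetic background of all samples. The rsl4-1 line is labelled as a T-DNA knock-out. The 35S::RSL4 line carries RSL4 behind the 35S promoter of cauliflower mosaic virus, which is active in most plant tissues. Its genetic variation entry also reads knock-out, so whether this line carries the rsl4-1 allele is not settled by the labels. Roots were taken at growth stage 3.2 from seedlings on vertical plates of Murashige and Skoog medium at pH 5.7 with 1% sucrose, in constant light at 25 °C. All entries give 4 days of cold for the seeds, but those of Col-0 also give 2 days, and a difference in cold treatment cannot be told apart from genotype. The labels do not say that the samples of a genotype were grown separately, so p-values measure the spread between these samples only, which may be technical.

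RSL4 encodes a transcription factor of the basic helix-loop-helix family. It drives elongation of root hairs, thin extensions of epidermal cells through which roots take up water and nutrients. Loci with neighbouring numbers are physical neighbours on the chromosome and were not chosen by function, so a stretch can hold genes of unrelated roles.

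Signals are the authors' MAS5 signals in scaled units, given array by array as replicate 1 and replicate 2, and means carry the SD of 2 arrays. No probe set was matched to RSL4, so its level does not check the labels here. The correlation between arrays was 0.982 to 0.986 within a genotype and 0.957 to 0.972 between genotypes. The 3 measured of 6 root hair markers were XTH26, EXPA7 and EXPA18. Their summed signal was 417 and 393 in Col-0, 283 and 242 in rsl4-1, and 810.3 and 883 in 35S::RSL4. Of these, 2 were called lower in rsl4-1 and 3 called higher in 35S::RSL4. The 2 measured of 6 shoot markers, RCA and LHCB4.1, summed to 387 and 324 in Col-0, 258 and 258 in rsl4-1, and 257 and 251 in 35S::RSL4, and LHCB4.1 was lower in both lines. None of the markers fixed for endodermis, root cap, phloem or meristem was tested, since none had a probe set with 1 locus in the annotation used. The other root hair and shoot markers lacked one as well, which says nothing on their expression. The part of these shifts in the members' values was not tested. In root RNA, fewer cells of a type and less RNA per cell cannot be told apart.

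Along the stretch, changes in rsl4-1 were more often falls than rises, and the falls at AT1G20220, GER2 and AT1G21160 were the called ones with a measured fold above 2. Of the 225 members 16 were lower and 7 higher in rsl4-1 than in Col-0 at a limma adjusted p under 0.05. With each array centred on its median the same comparison gave 13 lower and 9 higher members, so the higher share moved from 30.4% to 40.9%. The 23 calls were 10.2% of the members, beside 3.81% of all tested probe sets, 1.67% higher and 2.15% lower. The falls ran from -0.58 to -1.58 on the log2 scale with a median of -0.93, and the rises from 0.49 to 0.83 with a median of 0.67. A measured fold above 2 was reached by 3 of the 23 called members. At an adjusted p under 0.1, 12 members were higher and 25 lower, beside 2.83% and 3.18% of all tested probe sets. The median size of the log2 change without regard to sign was 0.19 over the members and 0.16 over all tested probe sets.

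In 35S::RSL4 the share of members called at a limma adjusted p under 0.05 was close to that of all tested probe sets. There 9 members were higher and 4 lower than in Col-0, which is 5.78% of the members beside 6.27% of all tested probe sets, 3.39% higher and 2.88% lower. The 9 include both probe sets of AT1G18390, a single locus. Quantile normalization gave 8 higher and 2 lower members and median centring 12 higher and 1 lower, which moved the higher share from 69.2% to 80.0% and 92.3%. The rises ran from 0.49 to 1.25 and the falls from -0.53 to -1.0 on the log2 scale. At an adjusted p under 0.1, 12 were higher and 11 lower, beside 5.43% and 5.95% of all tested probe sets. Rises and falls were thus about equal in number at that threshold. Both comparisons use the same Col-0 arrays.

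**Figure D1:**
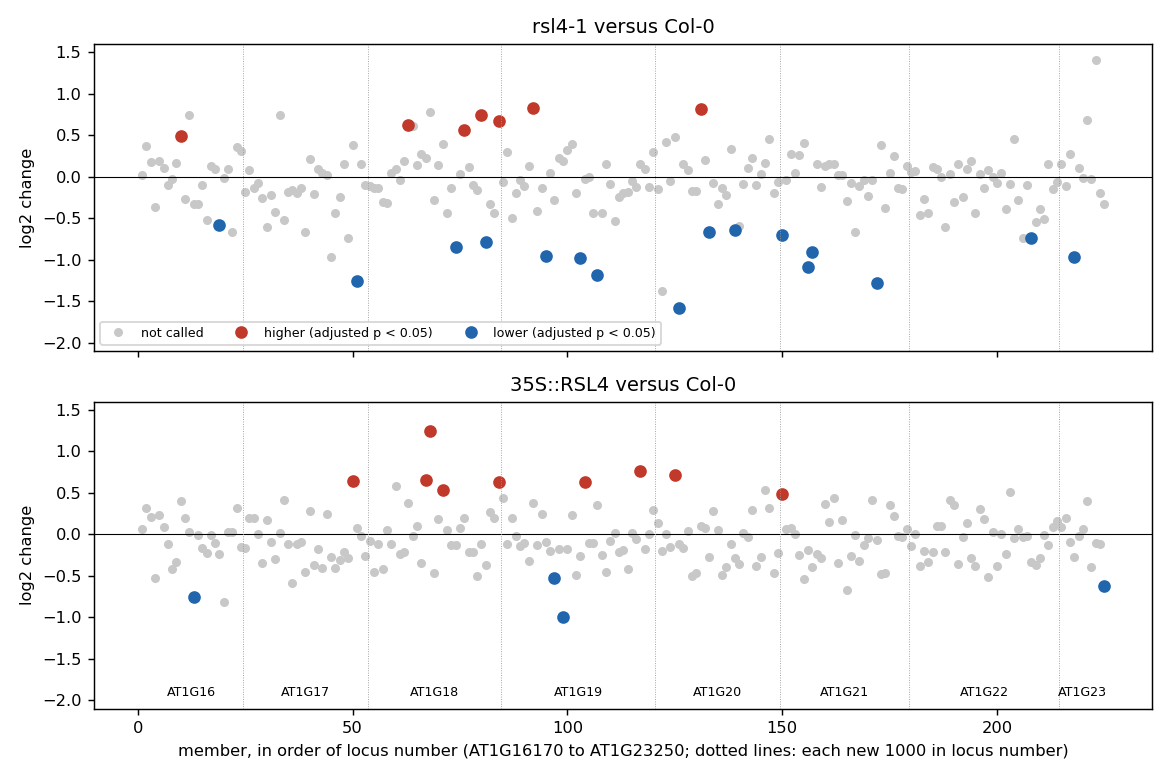
Log2 change against Col-0 of the 225 members in order of locus number, for rsl4-1 above and 35S::RSL4 below, with called members in red (higher) or blue (lower) and uncalled members in grey. In rsl4-1 the 16 lower members spread from AT1G16810 to AT1G23100, and in 35S::RSL4 no member between AT1G21000 and AT1G23230 was called.

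The plot of changes by locus order shows calls of rsl4-1 spread unevenly. The first called member was AT1G16560, after 9 members without a call, and the last was AT1G23100, before 7 members without one. Long runs without a call held 31 members between AT1G16810 and GER2, 18 between AT1G19650 and AT1G20220, and 35 between AT1G21730 and AT1G22850. Runs and neighbours are counted among members only, which cover 222 of the 810 annotated loci. Only 2 pairs of called members were direct neighbours among the members. AT1G18900 was higher beside the lower AT1G18910, and AT1G21160 and LSM3A were both lower. Neighbouring calls therefore had the same direction in 1 pair and opposite directions in the other. In 35S::RSL4 the only neighbouring calls were the 2 probe sets of AT1G18390, and the longest run without a call held 74 members, from beyond AT1G21000 to AT1G23230.

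By bins of 1000 locus numbers, the share called in rsl4-1 was 8.33% of 24 members in AT1G16 and 3.45% of 29 in AT1G17. It was 19.4% of 31 in AT1G18, 11.1% of 36 in AT1G19, 13.8% of 29 in AT1G20 and 13.3% of 30 in AT1G21. In AT1G22 only 2.86% of 35 members were called, and in AT1G23 9.09% of 11. From AT1G18000 to AT1G21999, 18 of 126 members were called, 6 higher and 12 lower, with 3 of 53 called before and 2 of 46 after, and these differences were not tested. The 7 higher members were at AT1G16560 and between AT1G18270 and AT1G20380. From AT1G20430 onward every one of the 8 calls was a fall.

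The same bins in 35S::RSL4 had shares of 4.17% in AT1G16, 3.45% in AT1G17, 12.9% in AT1G18, 11.1% in AT1G19, 3.45% in AT1G20, 3.33% in AT1G21 and 9.09% in AT1G23. The share over all tested probe sets was 6.27%. AT1G18 and AT1G19 held 8 of the 13 calls, and the 4 in AT1G18 include both probe sets of AT1G18390. Differences between these bins were not tested. In AT1G22, limma called 0 of 35 members in 35S::RSL4, and 3 (8.57%) had an unadjusted p under 0.05, beside 22.7% of all tested probe sets.

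**Figure D2:**
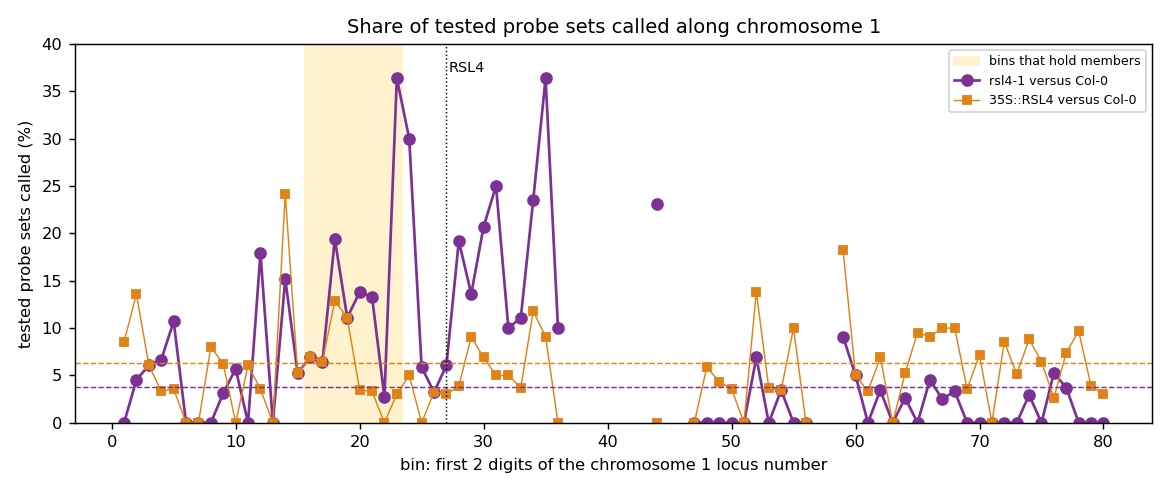
Percent of tested probe sets called against Col-0 in each bin of 1000 locus numbers along chromosome 1, for rsl4-1 (purple circles) and 35S::RSL4 (orange squares), with the share over all tested probe sets as dashed lines at 3.81% and 6.27%, the bins that hold members shaded and RSL4 dotted; edge bins also hold probe sets outside the stretch. In rsl4-1 the share was 2.70% in AT1G22 and rose to 36.4% in AT1G23.

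The plot of shares along chromosome 1 sets the stretch beside its surroundings. In rsl4-1 4.85% of the 474 tested probe sets before AT1G16170 were called, 10.2% of the members, 16.9% of the 207 within 500 loci of RSL4 and 19.4% of the 98 in the next stretch beyond. In 35S::RSL4 the shares over the same places were 5.91%, 5.78%, 3.86% and 6.12%. High bins also occurred before the members began, with 17.9% called in AT1G12 and 15.2% in AT1G14 in rsl4-1. The bin AT1G14 also held the highest share in 35S::RSL4, at 24.2%.

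Frequent changes were taken to begin at the first called member of the first window of 25 consecutive members in which at least 15.2% were called, which is 4 times the share over all tested probe sets. In rsl4-1 that window ran from AT1G18070 to AT1G18900 with 4 calls (16%), the fewest that reach this level. By this rule frequent changes began at AT1G18270, after 62 members. All 4 calls had a limma adjusted p of 0.0231 to 0.0339 and were lost when dim probe sets were not filtered out. Windows of 15 members gave the same locus, with 3 calls (20.0%). Windows of 35 members gave GER2 (AT1G17890), after 50 members, with 6 calls (17.1%). The number of members before the start ran from 42 to 82 when single arrays were left out. In 35S::RSL4 no window of 25 members reached 25.1%, the corresponding level, and the highest held 4 calls (16%).

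Beyond the start, frequent changes were not continuous. The densest windows of 25 members in rsl4-1 held 7 calls (28.0%), the first of them from AT1G18470 to AT1G19240. Windows with 0 calls in limma lay between AT1G16810 and GER2 and again within the run from AT1G21730 to AT1G22850. The windows were also run over all tested probe sets of chromosome 1. Frequent changes then formed blocks from AT1G18270 to AT1G19650 (10 of 45 probe sets) and from AT1G20220 to AT1G21190 (7 of 32). A block from AT1G21000 to AT1G21730 (4 of 23) overlapped the latter and shared its calls at AT1G21000, AT1G21160 and LSM3A. A further block began at AT1G22850, 1 of the last 2 called members, and ran past the members to AT1G24530 with 19 of 55 called. Earlier blocks lay outside the members, from AT1G12000 to AT1G12560 (5 of 19) and from AT1G14210 to AT1G14960 (5 of 26).

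The start at AT1G18270 was a property of calls after adjustment. At an unadjusted p under 0.05 in rsl4-1, 33.3% of members in AT1G16 and 34.5% in AT1G17 passed, beside 35.5% in AT1G18 and 23.3% to 31.0% in AT1G19 to AT1G23. That level was 29.8% over all members, 20.0% over the probe sets before AT1G16170, 32.9% within 500 loci of RSL4 and 16% over all tested probe sets. Of the members 24 were higher and 43 lower by this measure, beside 7.64% and 8.41% of all tested probe sets. The shares in AT1G16, AT1G17 and AT1G18 were about equal. They count REV7 (AT1G16590), AT1G17300 and AT1G18290, with limma unadjusted p of 0.016, 0.018 and 0.038. These are among the 5 members that passed the filter only through rsl4-1 arrays, so their direction was set by the filter. In 35S::RSL4 23.6% of members passed the unadjusted threshold, beside 22.7% of all tested probe sets. There 22 were higher and 31 lower, beside 9.3% and 13.4% of all.

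The fall with the smallest adjusted p among the members was at AT1G20220, for which the annotation gives the locus number alone. Its signal was 206 and 193 in Col-0, 68.0 and 65.6 in rsl4-1, and 197 and 174 in 35S::RSL4. Only the rsl4-1 arrays were low. The change in rsl4-1 was -1.58 ± 0.14 (SE) on the log2 scale, 2.99-fold lower (limma adjusted p = 4.77e-06), and 35S::RSL4 was higher than rsl4-1 by 1.47 (adjusted p = 3.96e-06).

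GER2 takes part in the synthesis of GDP-fucose, the sugar donor for fucose in cell wall polymers and glycoproteins. Its signal was 191 and 252 in Col-0, 86.1 and 98.3 in rsl4-1, and 227 and 238 in 35S::RSL4. Both rsl4-1 arrays were below all others, while the 35S::RSL4 arrays fell within the range of Col-0. GER2 fell by 1.25 ± 0.16 (SE) on the log2 scale in rsl4-1, a 2.38-fold lower signal (limma adjusted p = 0.000148), and changed by 0.08 in 35S::RSL4 (adjusted p = 0.794).

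AT1G19240 had signals of 149.8 and 141 in Col-0, 74.7 and 76.1 in rsl4-1, and 149 and 125 in 35S::RSL4. Again the rsl4-1 arrays alone were low, with a change of -0.95 ± 0.15 (SE), 1.93-fold lower (limma adjusted p = 0.00129). AT1G21730 read 42.6 and 39.9 in Col-0, 15.8 and 18.2 in rsl4-1, and 40 and 38.4 in 35S::RSL4. Both rsl4-1 arrays were below the array's 40th percentile, so the fall was at least 1.89-fold (fitted log2 change -1.28, limma adjusted p = 0.00199). AT1G20220, GER2, AT1G19240 and AT1G21730 were the 4 of the 23 calls that held in all 15 alternative settings.

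LSM3A is an Sm-like protein of the kind that binds RNA in mRNA decay and splicing complexes. Its signal was 97.2 and 107 in Col-0, 54.3 and 54.3 in rsl4-1, and 73.1 and 83.3 in 35S::RSL4. The 3 genotypes did not overlap, with 35S::RSL4 in between. LSM3A changed by -0.91 ± 0.16 (SE) in rsl4-1, 1.88-fold lower (limma adjusted p = 0.00269), a call lost without Col-0 replicate 2 (adjusted p = 0.0608), and by -0.39 in 35S::RSL4 (adjusted p = 0.154). Its neighbour among the members, AT1G21160, read 77.5 and 87.2 in Col-0, 45.8 and 32.5 in rsl4-1, and 78.5 and 66.2 in 35S::RSL4. It was low in rsl4-1 alone, with a change of -1.09 ± 0.19 (SE), 2.13-fold lower (limma adjusted p = 0.00274). That call was lost without Col-0 replicate 2 (adjusted p = 0.0561) and without rsl4-1 replicate 2 (adjusted p = 0.0627).

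**Figure D3:**
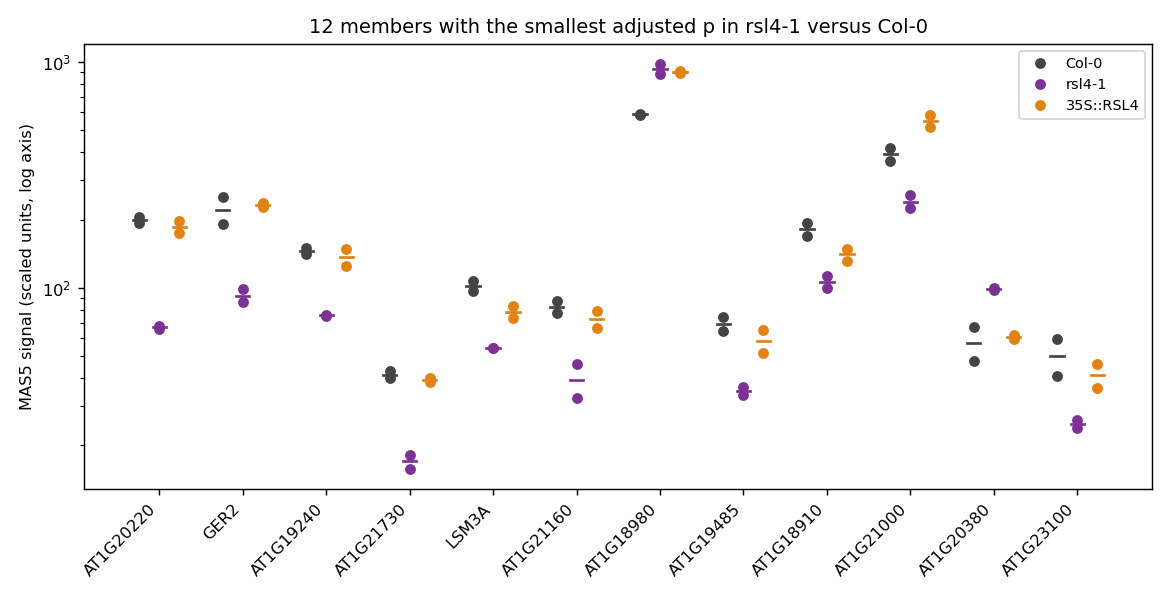
MAS5 signal on each array (points, log axis) and group mean (bars) of the 12 members with the smallest adjusted p in rsl4-1 versus Col-0, with 2 arrays each of Col-0 (grey), rsl4-1 (purple) and 35S::RSL4 (orange). AT1G20220 read 68.0 and 65.6 in rsl4-1 against at least 174 on the other arrays, AT1G18980 and AT1G20380 were the 2 higher members shown, and 35S::RSL4 stood above Col-0 at AT1G21000 and AT1G18980.

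Other falls in rsl4-1 lost their call when single arrays were left out. AT1G19485 read 73.9 and 64.5 in Col-0, 33.6 and 36.2 in rsl4-1, and 64.7 and 51.6 in 35S::RSL4, with rsl4-1 alone clearly low. Its change was -0.98 (limma adjusted p = 0.00459), a call lost without Col-0 replicate 1 (0.0798) or rsl4-1 replicate 1 (0.0567). AT1G18910 read 170.2 and 194 in Col-0, 113 and 100.1 in rsl4-1, and 149 and 132 in 35S::RSL4, so that 35S::RSL4 lay between the others. Its change was -0.78 (adjusted p = 0.00594), a call lost without Col-0 replicate 2 (0.113) or rsl4-1 replicate 2 (0.0878). AT1G19650 was dim, at 30.2 and 23.0 in Col-0, 9.17 and 14.7 in rsl4-1, and 33.5 and 33.7 in 35S::RSL4, and fell at least 1.21-fold (adjusted p = 0.0249). That call was lost without either Col-0 array (0.251 and 0.0735) and without rsl4-1 replicate 1 (0.227).

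The last called member, AT1G23100, read 40.7 and 59.0 in Col-0, 26.0 and 24 in rsl4-1, and 35.9 and 46.1 in 35S::RSL4. It was 1.96-fold lower in rsl4-1 (log2 change -0.97, limma adjusted p = 0.0213), and the 35S::RSL4 arrays overlapped with Col-0. This call was lost without Col-0 replicate 2 (adjusted p = 0.309), rsl4-1 replicate 1 (0.0987) or rsl4-1 replicate 2 (0.141). AT1G21000 was also lower and was called in both lines. The other lower members, AT1G16810, AT1G18680, AT1G20430, AT1G20580 and AT1G22850, changed by -0.58 to -0.84 with adjusted p from 0.0278 to 0.0499. Each lost its call without at least 2 of the 4 Col-0 and rsl4-1 arrays.

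Among the rises in rsl4-1, AT1G18980 had the smallest adjusted p. Its signal was 584 and 589 in Col-0, 979 and 886 in rsl4-1, and 899 and 911 in 35S::RSL4. Both lines were above Col-0 and overlapped with each other. It was 1.59-fold higher in rsl4-1 (log2 change 0.67 ± 0.12, SE, limma adjusted p = 0.00298) and 1.54-fold higher in 35S::RSL4 (0.63, adjusted p = 0.00456). The first call was lost without rsl4-1 replicate 1 (adjusted p = 0.0633) and the second without Col-0 replicate 1 (0.0581).

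AT1G20380 read 47.3 and 66.8 in Col-0, 100 and 98.2 in rsl4-1, and 61.7 and 59.0 in 35S::RSL4. Only rsl4-1 was high, by 0.82 on the log2 scale (limma adjusted p = 0.0153), a call lost without Col-0 replicate 1 (0.234) or either rsl4-1 array (0.126 and 0.102). AT1G18900 was likewise high in rsl4-1 alone, at 66.8 and 50.5 in Col-0, 87.8 and 107 in rsl4-1, and 50 and 57.6 in 35S::RSL4. It rose by 0.74 in rsl4-1 (limma adjusted p = 0.0322), a call lost without Col-0 replicate 2 (0.338) or either rsl4-1 array (0.0781 and 0.258). AT1G18270, where frequent changes began, read 255 and 232 in Col-0, 347 and 403 in rsl4-1, and 361 and 276 in 35S::RSL4. Both lines were above Col-0, and the change of 0.62 passed in rsl4-1 (adjusted p = 0.028) while the 0.38 in 35S::RSL4 did not (0.144). The call at AT1G18270 was lost without any 1 of the Col-0 and rsl4-1 arrays (adjusted p = 0.077 to 0.238).

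The remaining rises were AT1G16560, AT1G18720 and AT1G19170, with log2 changes of 0.49, 0.56 and 0.83. AT1G16560, the first called member, had a limma adjusted p of 0.0498 and lost its call in 11 of 15 settings. AT1G19170 (adjusted p = 0.0438) lost its call in 8 settings and AT1G18720 (0.0231) in 6. AT1G18720 read 546 and 501 in Col-0, 789.8 and 757 in rsl4-1, and 537 and 667 in 35S::RSL4, so that 1 array of 35S::RSL4 lay within Col-0 and the other between Col-0 and rsl4-1. Without rsl4-1 replicate 1, limma called 0 members higher in rsl4-1, and 14 were higher at an unadjusted p under 0.05.

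Among the 4 falls in 35S::RSL4, AT1G19380 had the largest. Its signal was 99.5 and 93.0 in Col-0, 114 and 106 in rsl4-1, and 48.2 and 47.7 in 35S::RSL4. Only 35S::RSL4 was low, 2.01-fold below Col-0 (log2 change -1.0 ± 0.15, SE, limma adjusted p = 0.000931), and it was below rsl4-1 by -1.20 (adjusted p = 7.98e-05). Its call held in all 15 settings. The other falls, AT1G16650, AT1G19330 and AT1G23230, changed by -0.75, -0.53 and -0.62 with adjusted p of 0.0354 to 0.0419. AT1G19330 lost its call in 12 settings and AT1G23230 in 11, leaving out an array of rsl4-1 among them. AT1G16650 lost it without either Col-0 array (0.158 and 0.173) or 35S::RSL4 replicate 2 (0.206).

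AT1G18390 was measured by 2 probe sets, which share their locus and are not independent. The dimmer one read 31.2 and 20.9 in Col-0, 50.6 and 37.9 in rsl4-1, and 62.9 and 59.0 in 35S::RSL4, 2.39-fold higher in 35S::RSL4 (log2 change 1.25 ± 0.22, SE, limma adjusted p = 0.00311). The brighter one read 161 and 165 in Col-0, 185 and 196 in rsl4-1, and 269.8 and 245 in 35S::RSL4, 1.58-fold higher (0.66 ± 0.14, adjusted p = 0.00829). On both, 35S::RSL4 was highest and rsl4-1 lay between, without overlap. The dimmer probe set kept its call in all 15 settings, and the brighter one lost it without Col-0 replicate 1 (0.095), Col-0 replicate 2 (0.0604) or 35S::RSL4 replicate 1 (0.0523).

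ATSBT5.2 is a subtilase, a member of a family of serine proteases. Its signal was 101 and 125 in Col-0, 168 and 145 in rsl4-1, and 174 and 196 in 35S::RSL4. Every array of either line was above Col-0. It was 1.64-fold higher in 35S::RSL4 (log2 change 0.71 ± 0.15, SE, limma adjusted p = 0.0115), a call lost without 35S::RSL4 replicate 2 (0.0973) and without Col-0 replicate 1 (0.184), and its 0.48 in rsl4-1 did not pass (adjusted p = 0.111).

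AT1G17860 was among the 5 members with the highest Col-0 signal, at 1077 and 1209 in Col-0, 1508 and 1456 in rsl4-1, and 1666 and 1909 in 35S::RSL4. The order Col-0, rsl4-1, 35S::RSL4 held without overlap, and the rise of 0.64 in 35S::RSL4 passed (limma adjusted p = 0.00392). It was lost without 35S::RSL4 replicate 2 (0.0587) and without Col-0 replicate 1 (0.0711). AT1G19530 read 141 and 155 in Col-0, 135 and 157 in rsl4-1, and 265 and 199 in 35S::RSL4, high in that line alone. Its rise of 0.63 (adjusted p = 0.027) was lost without Col-0 replicate 1 (0.221), Col-0 replicate 2 (0.0859) or 35S::RSL4 replicate 1 (0.172). AT1G18470 and AT1G19900 rose by 0.54 and 0.76, and both lost their calls without either Col-0 array or 35S::RSL4 replicate 2 (adjusted p = 0.0639 to 0.235).

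Called in both lines against Col-0 were 2 members. The same share over all tested probe sets was not taken, so this count is a description. Of the 2, AT1G18980 was higher in both lines. The other was AT1G21000, which read 366 and 417 in Col-0, 257 and 225 in rsl4-1, and 516 and 582 in 35S::RSL4. The genotypes did not overlap, with rsl4-1 lowest and 35S::RSL4 highest. AT1G21000 was 1.63-fold lower in rsl4-1 (log2 change -0.70, limma adjusted p = 0.00644), 1.40-fold higher in 35S::RSL4 (0.49, adjusted p = 0.0423) and 2.28-fold higher in 35S::RSL4 than in rsl4-1 (1.19, adjusted p = 2.28e-05). The fall was lost without Col-0 replicate 2 (0.121) or rsl4-1 replicate 2 (0.0992). The rise was lost in 11 of 15 settings, each array left out among them (0.0535 to 0.331).

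**Figure D4:**
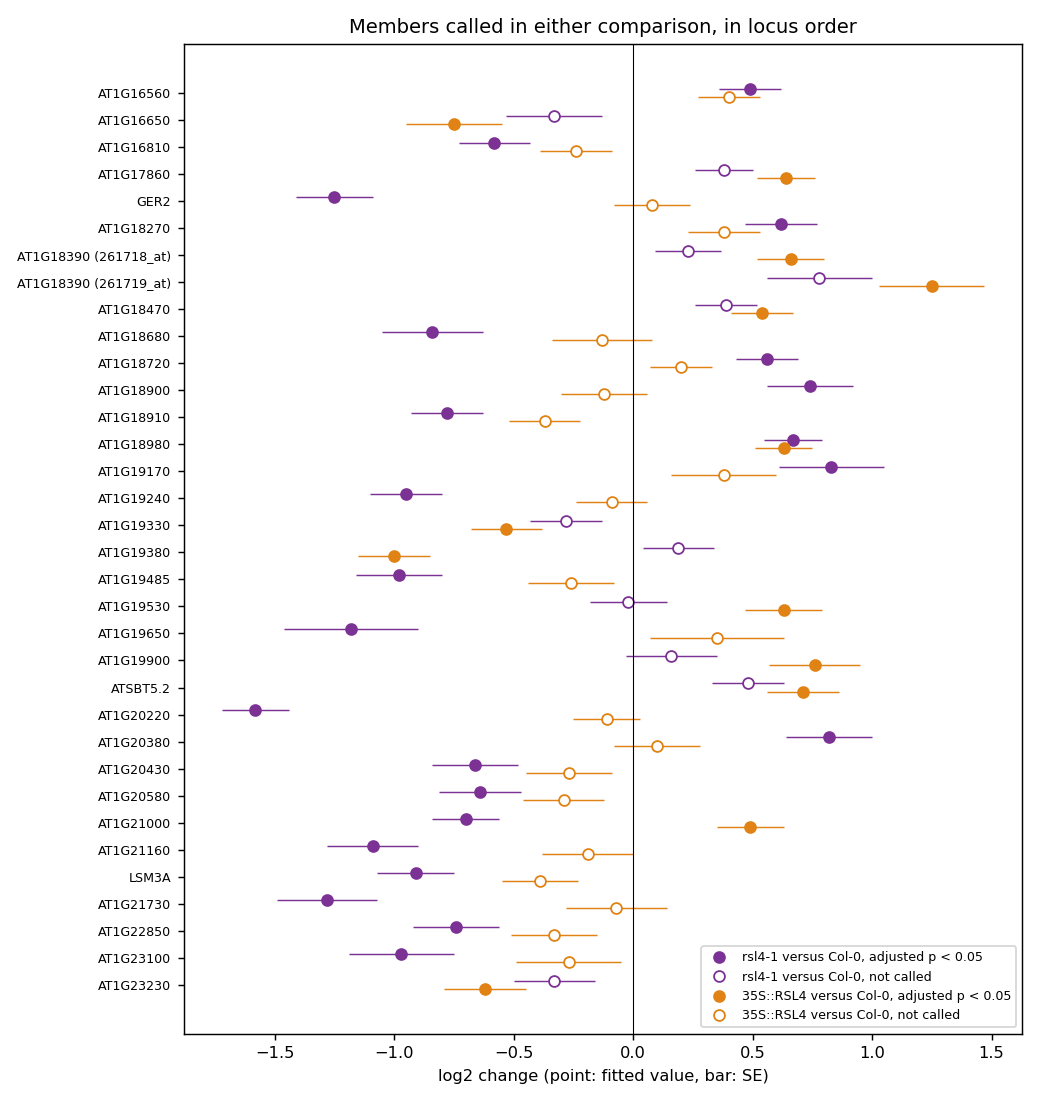
Fitted log2 change against Col-0 (points) with its SE (bars) of the 34 members called in either comparison, in order of locus number, for rsl4-1 (purple) and 35S::RSL4 (orange), filled where the adjusted p was under 0.05. AT1G18980 was higher in both lines, AT1G21000 was lower in rsl4-1 and higher in 35S::RSL4, and the other 32 members were filled in 1 comparison.

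The plot of called members sets both changes side by side. Of the 34 members, 21 were called in rsl4-1 alone and 11 in 35S::RSL4 alone, which by itself does not show that the lines differed at them. The difference between the lines was therefore taken from the same fit. It uses the rsl4-1 arrays again, so it is not independent of the choice of the stretch. It was called for 22 members (9.78%, beside 5.46% of all tested probe sets), 16 higher and 6 lower in 35S::RSL4, beside 3.19% and 2.27% of all. At an adjusted p under 0.1 it was called for 39 members, beside 8.74% of all tested probe sets. The line difference passed at 10 of the 23 members called in rsl4-1, 8 lower and 2 higher in rsl4-1 than in 35S::RSL4, and did not pass at 13. It passed at 3 of the 13 members called in 35S::RSL4, which were AT1G19380, AT1G19530 and AT1G21000.

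A further 10 members differed between the lines without a call against Col-0 in either. AT1G17145, AT1G17330, AT1G18540, AT1G19020, AT1G21590, AT1G22750 and AT1G22800 were higher in 35S::RSL4, and AT1G21090, AT1G22410 and AT1G23200 were lower. AT1G21090 had the smallest adjusted p of these, at 56.8 and 50 in Col-0, 73.5 and 68.3 in rsl4-1, and 32.9 and 40.7 in 35S::RSL4. The order rsl4-1, Col-0, 35S::RSL4 held without overlap, and the lines differed by -0.95 (limma adjusted p = 0.00363). AT1G23200 was dim in Col-0 and 35S::RSL4, at 13.8 and 6.60 in Col-0, 27.1 and 23.8 in rsl4-1, and 7.13 and 11.2 in 35S::RSL4 (fitted change of 1.41 in rsl4-1, limma adjusted p = 0.0581). It passed the filter only through its rsl4-1 arrays, as did 4 other members, and so had to be higher there. These 10 were listed after their values were seen.

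Only 22 members carry a gene symbol, and 203 are annotated by locus number alone. The members with a symbol are described here for that reason, a choice made after the values were seen. Of these 22, GER2 and LSM3A were called in rsl4-1 and ATSBT5.2 in 35S::RSL4, and 19 were called in neither. Like GER2, ATKDSA2 has a role in cell wall sugars. ATKDSA2, a KDO-8-phosphate synthase that feeds a pectin sugar, read 72.3 and 79.1 in Col-0, 88.0 and 75.7 in rsl4-1, and 85.3 and 76.2 in 35S::RSL4, with all 3 genotypes overlapping.

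LSM1A, of the Sm-like complex of mRNA decapping, read 275 and 356 in Col-0, 285 and 326 in rsl4-1, and 276 and 293 in 35S::RSL4, so its groups overlapped. STIPL1, a spliceosome protein, changed by -0.18 in rsl4-1 and -0.16 in 35S::RSL4. FUG1, a chloroplast translation initiation factor, changed by -0.42 and -0.30, and HLL, a mitochondrial ribosomal protein, by 0.05 and -0.41. None of these values passed, with limma adjusted p of 0.204 or more.

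ATMPK8, a mitogen-activated protein kinase, read 228 and 211 in Col-0, 155 and 202 in rsl4-1, and 205 and 251 in 35S::RSL4. Its rsl4-1 arrays were the lowest, but the change of -0.31 did not pass (limma adjusted p = 0.362). TUB5, a beta-tubulin of microtubules, changed by -0.15 in rsl4-1 and 0.14 in 35S::RSL4, and the calmodulin-binding proteins IQD30 and iqd32 by -0.10 and -0.05 in rsl4-1. SKP2A, an F-box protein, read 94.3 and 82.9 in Col-0, 101 and 96.8 in rsl4-1, and 133 and 109 in 35S::RSL4, highest in 35S::RSL4, but its change of 0.44 there did not pass (adjusted p = 0.103). UBP15, a ubiquitin-specific protease, changed by -0.08 and 0.01.

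GI, which acts in the circadian clock and in flowering time, read 79.4 and 74.7 in Col-0, 109 and 102 in rsl4-1, and 74.0 and 75.6 in 35S::RSL4. Its rsl4-1 arrays were above all others, but the change of 0.46 did not pass (limma adjusted p = 0.12). OPCL1, a ligase in the synthesis of jasmonate, read 96.2 and 102 in Col-0, 98.6 and 82.9 in rsl4-1, and 65.9 and 75.6 in 35S::RSL4. It was lowest in 35S::RSL4, with a change of -0.49 that did not pass (adjusted p = 0.081). LPR1, which takes part in the root's response to low phosphate, overlapped between all genotypes, at 28.1 and 37.9 in Col-0, 36.0 and 37.1 in rsl4-1, and 31.3 and 38.3 in 35S::RSL4. TMT1, a sugar transporter of the vacuole membrane, changed by 0.03 in rsl4-1 and -0.27 in 35S::RSL4. REV7, a subunit of a DNA polymerase that copies past damage, was dim in Col-0 and in 35S::RSL4, and ATLP-1, a thaumatin-like protein, changed by 0.19 and -0.21.

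The mean Col-0 signal of the members ran from 10.2 to 2073 with a median of 91.3, close to the 95.7 of all tested probe sets. Called members were not confined to dim probe sets: the median Col-0 signal was 124 for those lower in rsl4-1, 228 for those higher there, 163 for those higher in 35S::RSL4 and 96.7 for those lower there. The highest signal was that of COR47, a dehydrin induced by cold and drought, at 2196 and 1950 in Col-0, 1977 and 1939 in rsl4-1, and 2637 and 2387 in 35S::RSL4. Both 35S::RSL4 arrays were highest, but the change of 0.28 did not pass (limma adjusted p = 0.152). CYTC-1, a cytochrome c of the mitochondrial electron transport chain, followed at 1724 ± 74.4 in Col-0, 1603 ± 46.4 in rsl4-1 and 1706 ± 116 in 35S::RSL4 (SD, n = 2). The other 3 of the 5 brightest were AT1G22410, AT1G18540 and AT1G17860, and of the 5 only AT1G17860 was called against Col-0. Levels of different probe sets are not compared beyond this order, since probe sets differ in response.

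The 6 functional lists for the stretch, on jasmonate, glucosinolates, auxin, wall-associated kinases, redox and cold and dehydration, held 32 genes. Only 2 of these genes were members, AT1G23160 from the auxin list and COR47 from the cold and dehydration list. Neither was called in limma in either comparison, and neither had an adjusted p under 0.0702. AT1G23160 read 28.8 and 36.9 in Col-0, 53.9 and 50.8 in rsl4-1, and 39.3 and 47.2 in 35S::RSL4. Both lines were above Col-0 there. The lists therefore give no count of a pathway that changed.

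At the edges of the stretch, the nearest tested locus before it was AT1G16080, which changed by 0.18 in rsl4-1 and -0.17 in 35S::RSL4. The nearest after it was AT1G23280, at 67.0 and 58.6 in Col-0, 39.6 and 21.9 in rsl4-1, and 55.5 and 51.6 in 35S::RSL4. It was low in rsl4-1 alone, and its log2 change of -1.09 there was called (limma adjusted p = 0.0137). At the limit of the filter, AT1G18090 was just inside, with its second-highest signal at 1.01 times the array's percentile, and AT1G23205 just outside, at 0.977 times. Of the 368 one-locus probe sets of the stretch, 139 were below the filter, and 25 of the 225 members were above the percentile on only 2 to 5 arrays.

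The rule on symbols left out 4 measured probe sets, GSTU25, GSTU26, UGT85A2 and UGT85A7. GSTU25, a tau-class glutathione transferase, read 277 and 271 in Col-0, 84.2 and 75.5 in rsl4-1, and 359.8 and 512 in 35S::RSL4. Its groups did not overlap, with log2 changes of -1.78 in rsl4-1 and 0.65 in 35S::RSL4. GSTU26, at the next locus number, changed by -0.16 and 0.02. With these 4 counted as members, an alternative added after the data were seen, 7 members were higher and 17 lower in rsl4-1, and 10 higher and 4 lower in 35S::RSL4.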

How the data were processed

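Biotin-labelled root RNA was hybridised to 6 ATH1 arrays. The deposited intensity values are linear signals for which the submitters' processing notes name MAS5 and GCOS. Their versions are not given in the sources used here. Array scaling by the authors was kept, since the trimmed mean signal was 99.967 to 99.969 on every array. Of 22810 probe sets, 64 controls and 8576 below the filter were left out, and 14170 were tested. The array annotation used did not list 8730 of the probe sets, so these had no locus here. Names came from the array annotation and, with the order of loci, from RefSeq's TAIR10.1 gene table; coordinates and sequences were not used here.

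The log2 signals were fitted in limma 3.58.1 (R 4.3.3; lmFit, eBayes with an intensity trend), all 6 arrays in one fit, with two-sided Benjamini-Hochberg adjustment over all tested probe sets and a threshold of 0.05. The fit was tested on simulated data. Tables were made in Python 3.11.15. With 2 arrays per genotype the number of arrays limits precision: the SE of a log2 change had a median of 0.166, and an exact permutation test could not go below p = 0.333. A fold against a genotype below the 40th percentile on both arrays is a lower bound. Its denominator takes, on each array of the dim genotype, whichever of the percentile and the signal is larger.

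Named by rule were up to 15 called members per direction and comparison by adjusted p, members called in both, neighbouring calls, the first and last call, the 5 with the highest Col-0 signal and list members. The members, lists and rule were chosen with earlier results of these data known. Deviations of arrays with the same replicate number correlated at -0.189, 0.118 and -0.0849 between genotypes, so no strong shared deviation was seen. That does not settle whether the numbers pair samples, and the main fit did not pair them. Each setting was varied in turn: normalization (quantile or median centring), the filter (none), an offset at the 20th percentile, the trend (none), a fit of the compared groups alone, blocking on the replicate number, averaging a locus's probe sets, a threshold of 0.1, and omission of each array.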

Additional observations from a re-analysis of the deposited data

How the results depend on the processing

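No called value of a named member changed sign under any of the 15 settings run. Of 1140 values, 974 kept their side of the threshold, 157 fell short of it and 9 newly passed, and 15 values that were not called changed sign. The counts moved more. Higher members in rsl4-1 (7) were 1 without the filter, 2 without the intensity trend, 12 at a threshold of 0.1 and 0 to 5 with 1 array left out. Lower members in rsl4-1 (16) were 9 without the filter, 25 at 0.1 and 5 to 18 with 1 array left out. Higher members in 35S::RSL4 (9) were 5 without the trend and 1 to 8 with 1 array left out. Lower members there (4) were 2 under quantile normalization, 1 under median centring, 1 without the filter, 2 without the trend, 11 at 0.1 and 1 to 3 with 1 array left out. Calls between the lines (22) were 12 without the filter, 39 at 0.1 and 10 to 20 with 1 array left out. The members before frequent changes began (62) ran from 42 to 82 with 1 array left out. Calls in rsl4-1 that ended numbered 11 of 23 without Col-0 replicate 1, 15 without Col-0 replicate 2 and 14 without either rsl4-1 array. In 35S::RSL4 they numbered 11 of 13 without Col-0 replicate 1 and 8 without either of Col-0 replicate 2 and 35S::RSL4 replicate 2. Such fits take the single remaining array of a genotype to have the spread of the other groups. The replicate block gave 7 higher and 18 lower members in rsl4-1, 9 and 3 in 35S::RSL4, 22 between the lines and a start after 50 members. With only members above the percentile on all 6 arrays, chosen after the data were seen, the counts were 7, 14, 8, 4 and 18. The causes were not tested. Dim signals near the percentile carry the largest errors.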
